A study of Homo sapiens with 6 samples.

Results

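The genes described here are 8 components of the extrinsic death pathway and its caspase arm: the death receptors TNFRSF10A, TNFRSF10B and FAS, the decoy receptor TNFRSF10D, the initiator caspases CASP8 and CASP9, and the inhibitors CFLAR and XIAP. They were taken by symbol from the deposited count table, where each of the 8 symbols matched a single row of 57773, and all 8 were among the 16290 that the filterByExpr step of edgeR retained for testing. RNA came from SW872, an established human liposarcoma cell line. In the Apatinib group, 3 samples received 18 μM Apatinib, an oral inhibitor of the VEGF receptor kinase, for 24 h. The control group held 3 untreated samples of the same line, and both groups grew in RPMI-1640 with 10% FBS. The study's methods call the 3 samples of a group biological replicates, and the labels name no separate cultures, so p values measure the spread between these samples. All results therefore concern a single cell line at a single dose and time.

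Death receptors sit in the plasma membrane and carry a cytoplasmic death domain. TRAIL binds TNFRSF10A (DR4) and TNFRSF10B (DR5), and Fas ligand binds FAS; the bound receptor recruits the adaptor FADD and pro-caspase-8, whose activation leads to the executioner caspases. TNFRSF10D (DcR2) binds TRAIL but has a truncated death domain. In the intrinsic arm, cytochrome c released from mitochondria assembles with APAF1 and activates caspase-9. CFLAR encodes c-FLIP, which competes with caspase-8 at the receptor complex, and XIAP binds and inhibits caspase-9 and the executioner caspases. Much of this control acts on the proteins, by cleavage and complex formation, and mRNA levels do not show it.

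Sequence upstream of the RefSeq transcription starts (GRCh38.p14) was matched for 5 of the 8 symbols, FAS, CASP8, CASP9, CFLAR and XIAP. CASP9 is shown because it alone of the 8 genes was a DEG (a differentially expressed gene, with the limits given below). CASP8, the initiator caspase of the receptor arm, and XIAP, the inhibitor that binds caspase-9, are shown beside it. The stretches are parts of the 250 bases before a start that hold no annotated exon, written 5′ to 3′ on the strand of the gene. Capitals mark a GC box (GGGCGG) or a CCAAT box on either strand, where neighbouring matches that share bases were each counted. The CASP9 stretch is chr1:15524890-15525040 on the minus strand, the CASP8 stretch is chr2:201233213-201233442 on the plus strand and the XIAP stretch is chrX:123859564-123859723 on the plus strand.
CASP9: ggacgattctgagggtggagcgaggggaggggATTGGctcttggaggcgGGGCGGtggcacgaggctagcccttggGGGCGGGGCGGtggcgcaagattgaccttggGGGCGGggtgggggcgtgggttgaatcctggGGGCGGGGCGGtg
CASP8: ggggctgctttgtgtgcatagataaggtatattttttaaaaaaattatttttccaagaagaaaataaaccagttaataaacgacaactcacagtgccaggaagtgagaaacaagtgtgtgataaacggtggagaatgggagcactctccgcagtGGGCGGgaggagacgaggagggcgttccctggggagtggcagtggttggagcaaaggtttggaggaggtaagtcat
XIAP: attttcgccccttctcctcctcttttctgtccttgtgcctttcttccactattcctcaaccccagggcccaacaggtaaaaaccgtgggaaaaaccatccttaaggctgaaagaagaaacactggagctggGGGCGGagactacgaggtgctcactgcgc
The printed CASP9 stretch of 151 bases held 6 GC boxes and 1 CCAAT box. The CASP8 stretch of 230 bases and the XIAP stretch of 160 bases each held 1 GC box. In the whole window of 250 bases before the start, CASP9 had 8 GC boxes at each of its 2 starts. FAS had between 1 and 2, CFLAR between 0 and 2, CASP8 between 0 and 1 and XIAP between 0 and 2. Of 35116 windows of this length, 42.6% held a GC box and 0.584% held 8 or more. No window of the 5 genes held the cAMP response element TGACGTCA (1.65% of all windows) or the E2F motif TTTNGCGC (1.51%), each searched on both strands. These matches describe the letters of the windows and say nothing of a factor bound there.

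Libraries held between 17043314 and 22067558 counts. The counts of control replicates 1 and 2 were unusually alike: their chi-square averaged 2.27 per gene, against 18.2 to 44.5 for every other pair of libraries from the same group, so results that rest on them are also given without each of them or with both summed. Mitochondrial genes took 5.16% to 5.69% of the counts of the Apatinib libraries and 4.47% to 5.11% of the control libraries, and the part of this difference in the results below was not tested. Of the mesenchymal markers, VIM had at least 13447 counts in every library. FN1 and COL1A2 were higher in every Apatinib library (log2(FoldChange) 0.44 and 0.46, edgeR FDR = 0.0473 and 0.0394). The groups overlapped for VIM, COL1A1, THY1 and PDGFRB (edgeR FDR = 0.177, 0.740, 0.279 and 0.246), and COL1A1 had a lower mean FPKM with Apatinib. PTPRC, the pan-leukocyte marker, had 0 counts. Of 6 adipocyte markers, ADIPOQ, FABP4 and CEBPA had 0 counts in all 6 libraries (CEBPA had between 0.0579 and 0.319 FPKM), PPARG had at least 859 and PLIN1 14 to 30. LPL had 246, 416 and 298 counts in the Apatinib libraries and 195, 198 and 187 in the controls, and it was a DEG (edgeR FDR = 0.0237). Of the endothelial markers, VWF was higher at 22 to 53 counts against 9 to 27 (edgeR FDR = 0.0386) and CDH5 lower at 15 to 18 against 32 to 56 (edgeR FDR = 0.0242). TEK overlapped between the groups at 189 to 260 counts (edgeR FDR = 0.640), and KDR had 4 to 11. Among the epithelial markers, KRT18 had 1068 to 1526 counts and was higher in CPM in every Apatinib library (edgeR FDR = 0.156). EPCAM had 1 to 7 counts, CDH1 0 to 2, KRT19 1 to 23 and CLDN4 34 to 65. The macrophage marker CD68 had 0 to 1 counts but 6.78 to 11.8 FPKM with Apatinib and 1.79 to 3.3 FPKM in control cells. The part of these markers in the results below was not tested. With edgeR's quasi-likelihood test, 1866 of 16290 genes were DEGs at an FDR under 0.05 and a log2(FoldChange) above 0.5 in size, 973 higher and 893 lower with Apatinib. That count was 795 without Apatinib replicate 1, 275 without control replicate 1, 300 without control replicate 2 and 2594 without control replicate 3.

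Levels of different genes were compared on the FPKM scale, which divides by transcript length. In control cells TNFRSF10B had the highest level of the 8 genes, 24.3 ± 2.27 FPKM (SD, n = 3), followed by CASP8 at 16.9 ± 2.33 and TNFRSF10D at 8.38 ± 1.05. The ranges of these 3 genes did not overlap. XIAP (5.73 ± 0.445) and CFLAR (5.64 ± 1.02) overlapped each other and lay below TNFRSF10D, and TNFRSF10A (4.10 ± 0.30), FAS (3.34 ± 0.767) and CASP9 (3.24 ± 0.310) were lowest, where FAS overlapped each of the others and the range of TNFRSF10A lay above that of CASP9. With Apatinib, TNFRSF10B (37.3 ± 15.2 FPKM) and CASP8 (17.4 ± 3.41) remained at the top and FAS (2.12 ± 0.340) was lowest, apart from the rest. Between them CFLAR (7.27 ± 1.53), TNFRSF10D (7.06 ± 1.96), XIAP (5.15 ± 1.26), CASP9 (4.98 ± 0.753) and TNFRSF10A (4.93 ± 1.34) each overlapped the next. CASP9, the lowest mean of the control cells, was therefore within the ranges of TNFRSF10A and XIAP in treated cells.

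**Figure D1:**
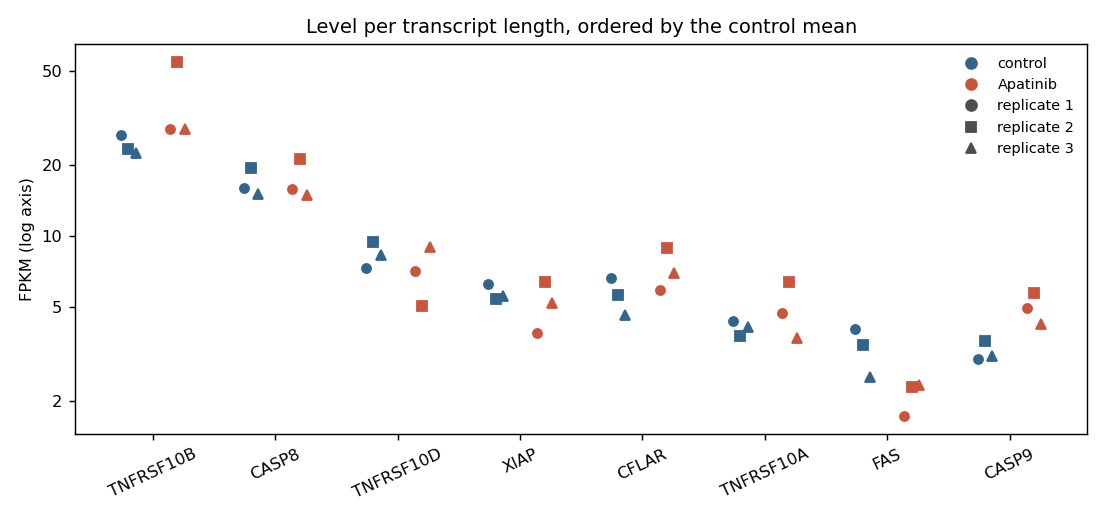
FPKM (log axis) of the 8 genes in each library, ordered from left to right by the control mean, with blue for control, red for Apatinib and the marker shape for the replicate. TNFRSF10B is highest in both groups, 24.3 and 37.3 FPKM on average, and Apatinib replicate 2 lies apart at 54.8 FPKM.

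CASP9 was the 1 gene of the 8 that was a DEG, higher with Apatinib, where 11.5% of all genes tested were DEGs. TNFRSF10B lay higher and FAS lower in every Apatinib library than in every control library, but neither reached an FDR of 0.05. The groups overlapped for TNFRSF10A, TNFRSF10D, CASP8, CFLAR and XIAP. With CASP9 this makes 3 of 8 genes whose groups did not overlap, 2 higher and 1 lower, and 33.2% of all genes tested showed the same. The median log2(FoldChange) of the 8 genes was 0.068, against 0.00284 over all genes tested. DESeq2 with the same limits called 2 of the 8, TNFRSF10B and CASP9, where it called 14.2% of all genes it tested. The first 2 counts lie near the shares of the whole table and are not in themselves a result about the 8 genes. CPM values are relative to the library total, so fewer cells of a type and less RNA per cell cannot be told apart in these bulk samples.

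**Figure D2:**
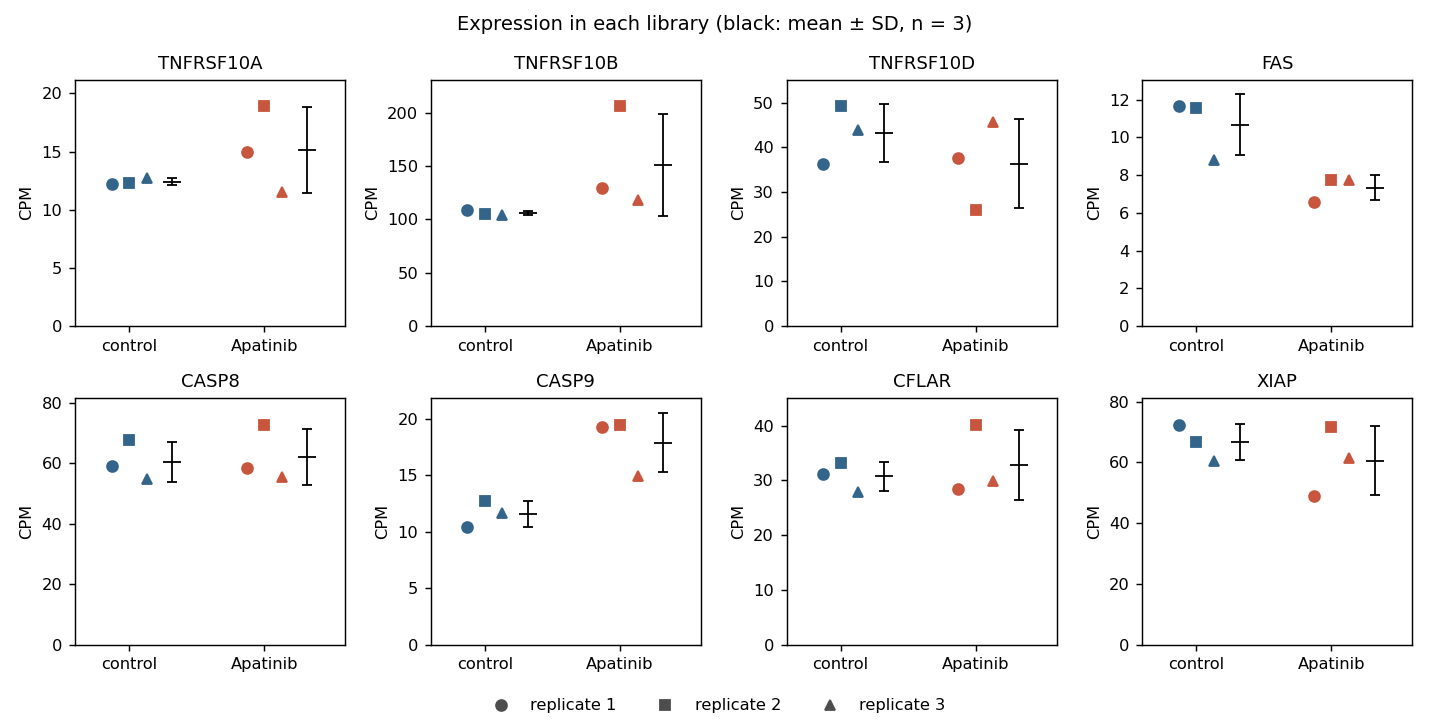
CPM (counts scaled to a common library size by TMM, linear axes from 0) of the 8 genes, with coloured points for the libraries and black bars for the mean ± SD of 3. CASP9 and TNFRSF10B lie above and FAS below the control libraries without overlap, and the Apatinib point far above the others for TNFRSF10B is replicate 2, at 206 CPM.

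Among the TRAIL receptors, TNFRSF10B (ENSG00000120889) had 129, 206 and 118 CPM in Apatinib replicates 1 to 3, and 109, 105 and 104 CPM in control replicates 1 to 3. All treated libraries lay above all controls, and replicate 2 stood far above the other treated libraries. The control libraries spread by 2.22 CPM (SD) around 106 and the treated ones by 48.0 around 151. The log2(FoldChange) was 0.51 (SE 0.185, 95% CI 0.11 to 0.92), a 1.43-fold higher mean, and the edgeR FDR was 0.0868 (unadjusted p = 0.0171). Without Apatinib replicate 2 the log2(FoldChange) was 0.23 and the edgeR FDR 0.172, and without Apatinib replicate 3 they were 0.67 and 0.0439. The edgeR FDR was 0.214 without control replicate 1, 0.238 without control replicate 2 and 0.222 with these 2 summed. DESeq2 on all 6 libraries gave nearly the same log2(FoldChange) as edgeR, 0.52, with an FDR of 0.0373, which passes the limits. The 67 exonic bases shared with RHOBTB2 on the other strand (566 to 874 counts for that gene) cannot be assigned if the counting ignored strand, which the sources used here do not state.

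TNFRSF10A (ENSG00000104689), the other signalling TRAIL receptor, had 14.9, 18.9 and 11.5 CPM with Apatinib and 12.2, 12.3 and 12.7 CPM in control cells. Replicate 2 was again the highest treated library, while replicate 3 lay below all controls. The log2(FoldChange) was 0.28 (95% CI −0.12 to 0.69, edgeR FDR = 0.322). On the opposite strand, TNFRSF10A shares 266 exonic bases with AC100861.1 (46 to 79 counts) and 224 with TNFRSF10A-AS1 (5 to 21 counts). TNFRSF10D (ENSG00000173530), the decoy, had 37.5, 25.9 and 45.7 CPM against 36.4, 49.2 and 43.9 CPM, with a log2(FoldChange) of −0.25 (95% CI −0.67 to 0.18, edgeR FDR = 0.420). Its lowest value was in Apatinib replicate 2, the library with the highest TNFRSF10A and TNFRSF10B, and the other treated libraries fell within the control range of 36.4 to 49.2 CPM. The intervals leave a difference of up to 0.69 for TNFRSF10A and −0.67 for TNFRSF10D on the log2 scale undetected.

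FAS (ENSG00000026103), the receptor of Fas ligand, had 6.57, 7.73 and 7.73 CPM in the Apatinib libraries and 11.7, 11.5 and 8.80 CPM in the controls. Control replicate 3 lay nearest to the treated libraries. These values rest on 113, 137 and 135 counts with Apatinib and 202, 210 and 192 counts in control cells. The log2(FoldChange) was −0.54 (SE 0.178, 95% CI −0.92 to −0.15), a level 0.690 times that of control cells, with an edgeR FDR of 0.0675. Without control replicate 3 it was −0.66 with an edgeR FDR of 0.0308, and with any other library left out the FDR lay between 0.0762 and 0.254. FAS shares 380 exonic bases with ACTA2 on the opposite strand, and ACTA2 had 12 to 30 counts.

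CASP9 (ENSG00000132906), the initiator caspase of the apoptosome, had 19.3, 19.5 and 14.9 CPM with Apatinib and 10.4, 12.7 and 11.7 CPM in control cells. The lowest treated library lay above the highest control. In counts these were 331, 345 and 260 against 180, 231 and 255. The means were 17.9 ± 2.59 and 11.6 ± 1.16 CPM, 1.54-fold higher with Apatinib (95% CI 1.2 to 1.97), with a log2(FoldChange) of 0.62 (SE 0.163) and an edgeR FDR of 0.0313. DESeq2 gave 0.63 and an FDR of 0.0115. The direction held with every library left out, with log2(FoldChange) between 0.55 and 0.74, but the call did not. The edgeR FDR was 0.0864 without Apatinib replicate 1, 0.0549 without Apatinib replicate 2, 0.157 without control replicate 1 and 0.0960 without control replicate 2, and 0.112 with the counts of control replicates 1 and 2 summed as 1 sample. CASP9 shares 106 exonic bases with CELA2B on the opposite strand, which had 0 to 4 counts.

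The genes whose log2 CPM followed CASP9 most closely over the 6 libraries, once centred, included SLC45A1 and PNPLA4, at root mean square distances of 0.0479 and 0.0547. PNPLA4, which encodes a lipid hydrolase, was itself a DEG with a log2(FoldChange) of 0.58 (edgeR FDR = 0.0273). SLC45A1, at 3.0 to 5.25 CPM, had a log2(FoldChange) of 0.62 (edgeR FDR = 0.0657). They were picked for this likeness, so it is a description.

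CASP8 (ENSG00000064012), the initiator caspase of the receptor complex, had 58.3, 72.8 and 55.4 CPM with Apatinib and 59.1, 67.6 and 54.7 CPM in control cells. The 2 groups spanned nearly the same range. The log2(FoldChange) was 0.041 (95% CI −0.27 to 0.35, edgeR FDR = 0.877), and its sign changed with the library left out, from −0.083 without Apatinib replicate 2 to 0.13 without control replicate 2.

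CFLAR (ENSG00000003402), the caspase-8 homologue without protease activity, had 28.5, 40.2 and 29.8 CPM with Apatinib and 31.2, 33.2 and 27.9 CPM in control cells. Apatinib replicate 2 was the highest and the other treated libraries were among the controls. The log2(FoldChange) was 0.095 (95% CI −0.25 to 0.44, edgeR FDR = 0.721) and −0.070 without Apatinib replicate 2, while limma on the deposited FPKM gave 0.31 with 1 added and 0.35 with 0.1 added (limma FDR = 0.270 and 0.268). CFLAR-AS1 overlaps 777 of its exonic bases on the opposite strand, with 4 to 8 counts. XIAP (ENSG00000101966) had 49.0, 71.5 and 61.3 CPM against 72.4, 66.6 and 60.6 CPM. Its lowest value was in Apatinib replicate 1, and its log2(FoldChange) was −0.13 (95% CI −0.46 to 0.19, edgeR FDR = 0.584). A p value above the limit does not show that these inhibitors were at equal levels, and the intervals give the sizes that these 6 libraries could not separate from 0.

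Apatinib replicate 2 was the treated library farthest from the control mean for 6 of the 8 genes, all but FAS and XIAP, for which replicate 1 was farthest. Over all genes tested, replicate 1 was farthest for 45.7%, replicate 2 for 38.5% and replicate 3 for 15.8%. Replicate 3 was farthest for 0 of the 8 genes. Leaving replicate 2 out lowered the log2(FoldChange) of TNFRSF10A from 0.28 to 0.095 and moved that of TNFRSF10D from −0.25 to −0.047.

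**Figure D3:**
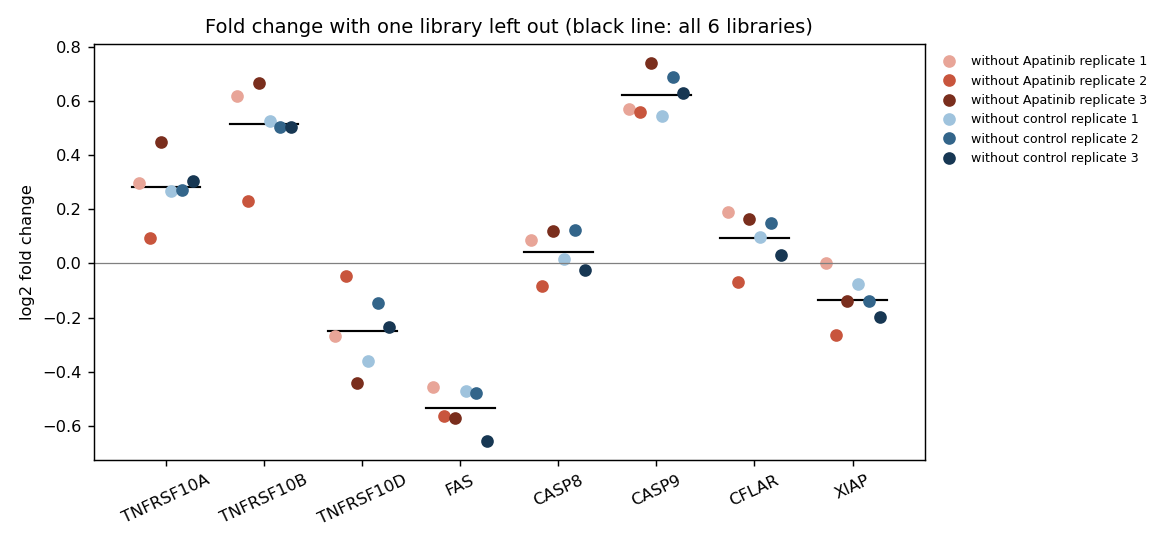
Log2 fold change of the 8 genes from edgeR with each library left out in turn (red shades for Apatinib, blue shades for control libraries), with a black line at the value from all 6 libraries. CASP9 stays between 0.55 and 0.74 and FAS between −0.66 and −0.46, while TNFRSF10B drops to 0.23 without Apatinib replicate 2 and CASP8, CFLAR and XIAP cross or reach 0.

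Within each library, ratios of counts between partners do not depend on library scaling, and 4 were compared by an exact two-sided permutation test over the samples, whose smallest possible p with 3 against 3 is 0.1. The XIAP to CASP9 ratio, inhibitor to target, was 2.54, 3.67 and 4.12 with Apatinib and 6.97, 5.25 and 5.19 in control cells. Every treated library lay below every control, the difference in log2 ratio was −0.77, and the exact p was 0.1, the smallest this design allows (0.267 adjusted over the 4 ratios by the Benjamini-Hochberg method). Of its parts, CASP9 was a DEG and XIAP was not.

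The TNFRSF10B to TNFRSF10D ratio, signalling receptor to decoy, had log2 values of 1.79, 3.0 and 1.37 with Apatinib and 1.58, 1.09 and 1.25 in control cells. The groups overlapped and replicate 2 stood apart, with a difference of 0.75 over all libraries and 0.27 without it (exact p = 0.2 with all 6, adjusted 0.267). The TNFRSF10B to TNFRSF10A ratio had log2 values of 3.11, 3.45 and 3.36 against 3.15, 3.10 and 3.04, a difference of 0.21 (exact permutation p = 0.2, adjusted 0.267). The CFLAR to CASP8 ratio was −1.03, −0.86 and −0.89 against −0.92, −1.03 and −0.97 on the log2 scale. Its difference was 0.045 (exact permutation p = 0.5, adjusted 0.5), and 0.33 when taken from the deposited FPKM (exact permutation p = 0.2).

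**Figure D4:**
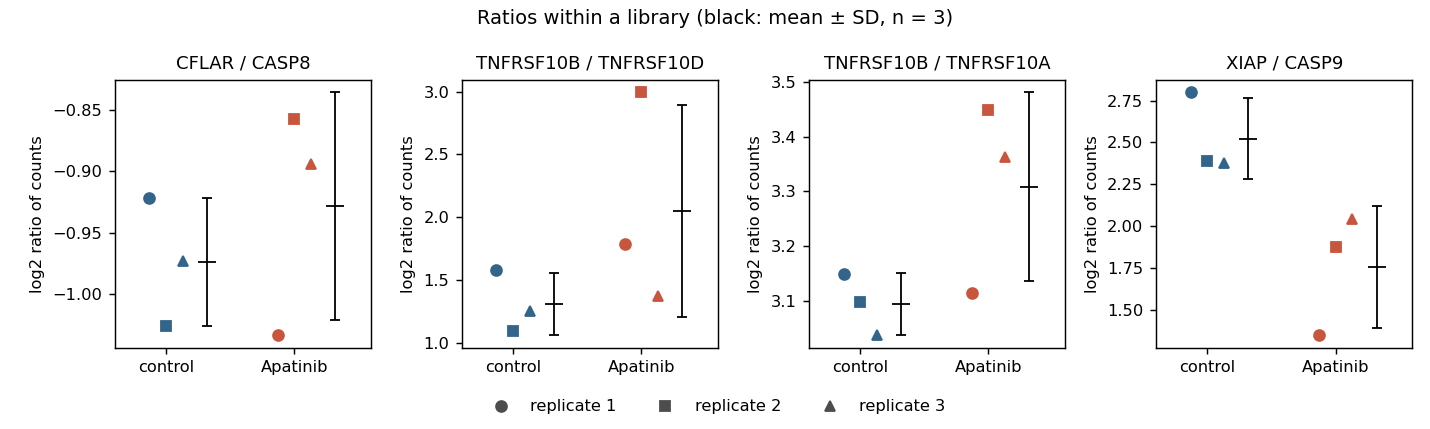
Log2 ratio of counts within each library for 4 gene pairs, with blue points for control, red for Apatinib and black bars for the mean ± SD of 3 (the vertical axes differ and do not start at 0). The XIAP to CASP9 ratio is lower in all treated libraries, between 1.35 and 2.04 against 2.38 to 2.80, and the other 3 pairs overlap.

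The rest of the pathway was read from 11 lists by role, with 74 genes including the 8. Of these, 63 passed the filter, and 10 were DEGs, 3 higher and 7 lower. Leaving aside the 8 genes, 9 of 55 tested were DEGs, 2 higher and 7 lower, where the share over all genes was 11.5%. The median log2(FoldChange) over the 63 was −0.012. None of the 10 calls was made without control replicate 1, without control replicate 2 or with the 2 summed. Of the DEGs named here, CASP2, BIRC5, LMNB1 and GSN were still called without Apatinib replicate 1, and without Apatinib replicate 2, LMNB1 and GSN were. BIRC5 and ROCK1 were no longer DEGs without Apatinib replicate 3, nor were TNFRSF12A and BIRC5 without control replicate 3.

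The ligands of these receptors were low or without a detected difference. TNFSF10, which encodes TRAIL, was counted 339, 545 and 429 times in the Apatinib libraries and 500, 448 and 574 times in the controls, with a log2(FoldChange) of −0.088 (edgeR FDR = 0.764). FASLG had 0 counts in all 6 libraries, which allows at most 0.175 CPM in the library with the highest floor (3 counts, counting error only), and TNF had 2 to 9 counts. TNFSF12, the ligand TWEAK, had a log2(FoldChange) of 0.29 (edgeR FDR = 0.235).

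Of 8 receptors tested, 1 was a DEG (11.5% over all genes), TNFRSF12A, the receptor of TWEAK, which has no death domain. Its Apatinib libraries held 900, 1791 and 707 counts and its control libraries 573, 680 and 658, with a log2(FoldChange) of 0.95 (edgeR FDR = 0.0423). As with TNFRSF10B, Apatinib replicate 2 was the highest, and without it the log2(FoldChange) was 0.47 with an edgeR FDR of 0.0637. TNFRSF21 (DR6) had an edgeR FDR of 0.0416 but a log2(FoldChange) of 0.43, under the limit. Its edgeR FDR was 0.214 without control replicate 1, 0.138 without control replicate 2 and 0.159 with both summed. The receptor list had a median of 0.26, the decoys −0.25 (0 of 3 DEGs, with TNFRSF11B at −0.29, edgeR FDR = 0.213) and the adaptors 0.028 (0 of 8). In these 2 lists, 0 genes had an unadjusted p under 0.05 in edgeR (4979 of 16290 in the whole table) and 0 were DEGs with DESeq2 (14.2%). The smallest p among the adaptors was that of CRADD, at 0.33 (edgeR FDR = 0.190), followed by TRADD at 0.28 (edgeR FDR = 0.208).

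Among the 4 initiator caspases 2 were DEGs (11.5% over all genes), CASP9 higher and CASP2 lower. CASP2, which assembles on a separate platform, the PIDDosome, had 87 to 109 CPM with Apatinib and 137 to 155 CPM in control cells, and its log2(FoldChange) was −0.58 (edgeR FDR = 0.0171). The executioner caspase CASP6 stood at 0.12 (edgeR FDR = 0.610), and the tested inflammatory caspases CASP4 and CASP1 at 0.16 (edgeR FDR = 0.404) and −0.031 (edgeR FDR = 0.917).

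The partners of CASP9 in the apoptosome were lower with Apatinib while CASP9 was higher. APAF1, its scaffold, had 40.9, 31.3 and 50.3 CPM against 62.7, 66.4 and 56.1 CPM, a log2(FoldChange) of −0.60 (edgeR FDR = 0.0393). CYCS, which encodes cytochrome c, had a log2(FoldChange) of −0.51 (edgeR FDR = 0.0387), and the annotation names 39 pseudogenes of it, which held 173 counts over the 6 libraries where CYCS had 1269 to 2333 in each. The 2 were the DEGs among 7 tested genes of this list (11.5% over all genes), and the list's median was −0.012.

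In the family of XIAP, all 6 tested IAP genes had a log2(FoldChange) below 0, as had 49.7% of all genes tested, and their median was −0.62. XIAP was the closest to 0 and the only member of the list with an unadjusted p above 0.05, while 4979 of 16290 genes had a p below it. The 1 DEG of the 6 (11.5% over all genes) was BIRC5, which encodes survivin and is best known for its part in mitosis, with 21.8 to 37.2 CPM against 42.2 to 51.1 CPM and a log2(FoldChange) of −0.61 (edgeR FDR = 0.0477). BIRC2 (cIAP1), a ubiquitin ligase of the receptor complexes, had −0.63 (edgeR FDR = 0.0626), with control replicate 3 at 111 CPM against 174 and 181 CPM in the other controls. DESeq2 called it (−0.62, FDR = 0.0164), as did edgeR with no filter (FDR = 0.00109) and with a replicate block (FDR = 0.0124). It was also a DEG without control replicate 3 (−0.82, edgeR FDR = 0.00691) and without Apatinib replicate 2 (−0.80, edgeR FDR = 0.0392), but not without Apatinib replicate 1 (−0.48, edgeR FDR = 0.181). Leaving out control replicate 1 gave an edgeR FDR of 0.214, leaving out control replicate 2 gave 0.241, and summing both gave 0.224.

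Of the 9 tested genes on the list named other inhibitors of death signalling, CFLAR among them, 0 were DEGs with edgeR (11.5% of all genes) and 0 with DESeq2 (14.2%). This list also holds XAF1, SIVA1 and CYLD, so its counts are not those of inhibitors alone. An unadjusted edgeR p under 0.05 was found for 4 of the 9, SIVA1 among them, and for 4979 of 16290 genes in the whole table. TNFAIP3 (A20) had a log2(FoldChange) of 0.61 (edgeR FDR = 0.0860) and FAIM2 of 0.50 (edgeR FDR = 0.0776). Of 10 caspase substrates, 3 were DEGs (11.5% over all genes): LMNB1 (−0.78, edgeR FDR = 0.0375) and ROCK1 (−0.64, edgeR FDR = 0.0473) were lower and GSN, which encodes the actin-severing protein gelsolin, was higher (0.72, edgeR FDR = 0.0112). A ROCK1 pseudogene held 284 counts over the 6 libraries. These are transcript levels, and cleavage of the proteins was not measured.

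**Figure D5:**
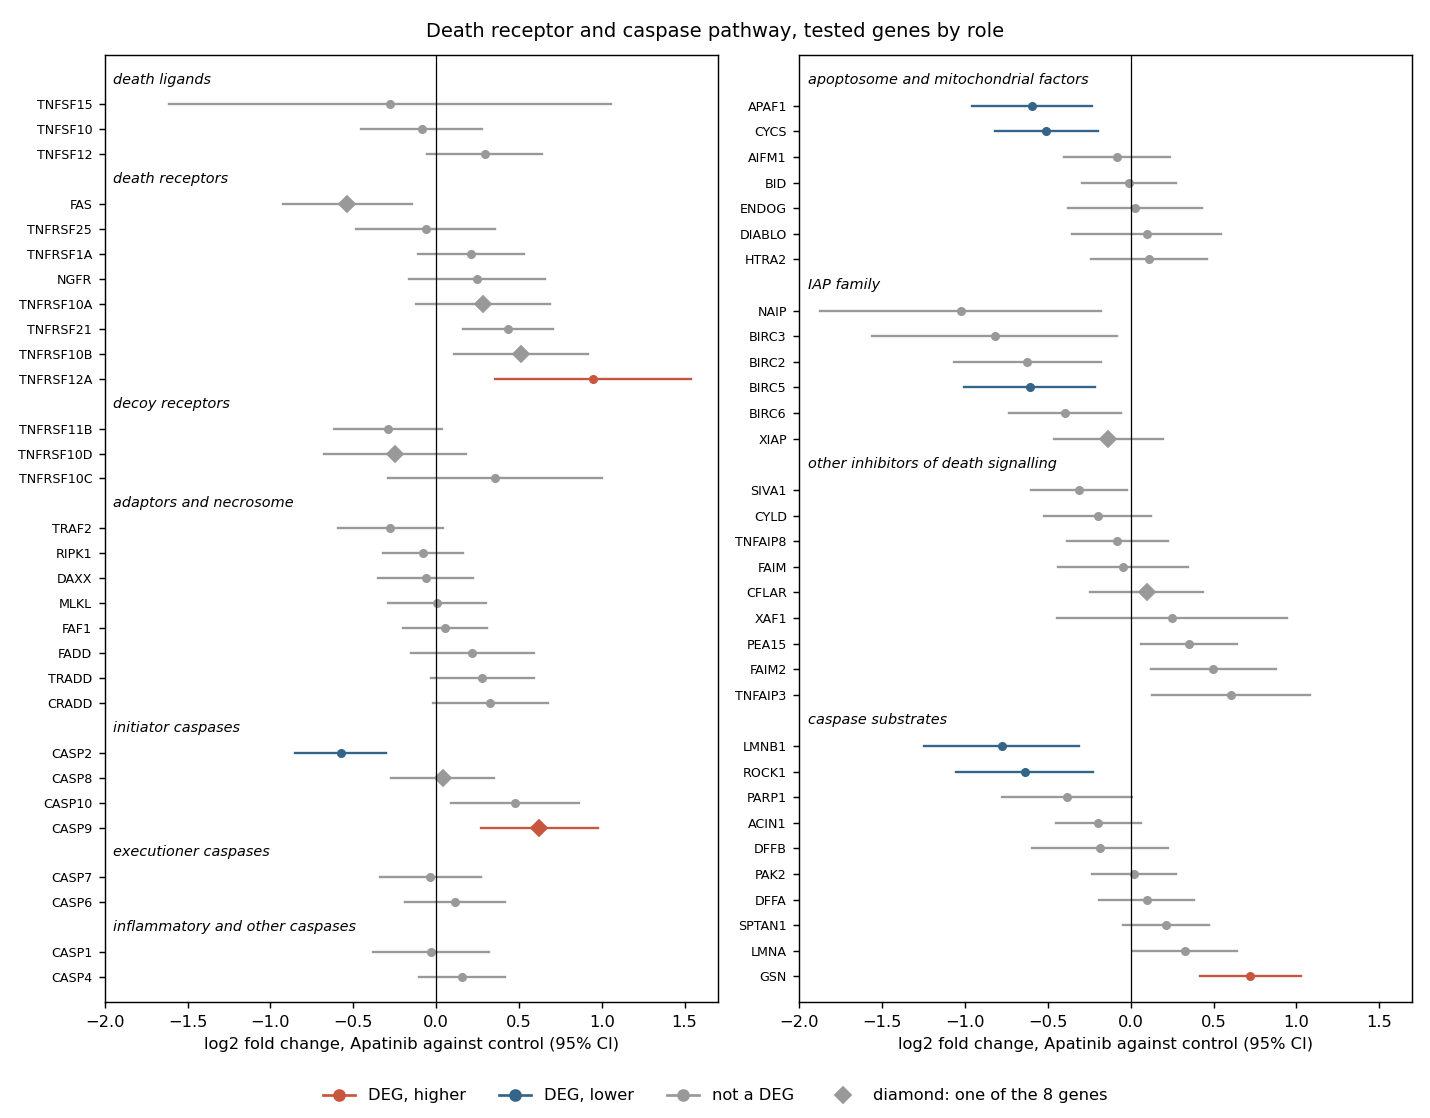
Log2 fold change with its 95% CI from edgeR for the tested genes by role (1 is not shown), with red for DEGs that were higher, blue for lower, grey for the rest and diamonds for the 8 genes. CASP9 is the single coloured diamond, at 0.62, and the blue points of CASP2 (−0.58) and APAF1 (−0.60) lie on the other side of 0.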

How the data were processed

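RNA sequencing of 6 libraries was analysed, 3 with Apatinib and 3 untreated, grouped by their labels. Per the labels, the submitters' processing notes name CASAVA, STAR 2.7.1a and hg19; the counting program, its strand setting and the annotation are not given in the sources used here. The authors deposited raw counts of 57773 genes and, for each sample, FPKM, in which fragments are divided by transcript length and by the mapped total. The program behind the FPKM values is not given, and 779 genes with 0 counts in all 6 libraries had FPKM above 0 in all of them, so the FPKM values were not made from these counts. In the Apatinib replicate 1 file, 1 extra column headed as a control sample was not used.

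Tests on the counts used edgeR 4.0.16 under R 4.3.3 (filterByExpr, TMM, quasi-likelihood F test, Benjamini-Hochberg over 16290 genes). CPM values use the TMM-scaled library sizes. Log2 CPM for likeness used a prior count of 2. The limits for a DEG were FDR below 0.05 and, in either direction, more than 0.5 on the log2 scale. DESeq2 (version 1.42.0 here; the study also names DESeq2, in another version) and limma 3.58.1 on FPKM values (log2 with 1 or 0.1 added, mean FPKM above 0.5) were alternatives, as were RLE size factors, other filters, a replicate block, control replicates 1 and 2 summed, and leaving out each library. DESeq2 gave 2046 DEGs of 14408 genes with an adjusted p (14.2%), among them 2 of the 8 genes. The edgeR, DESeq2 and limma steps were tested on simulated data.

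The same replicate number did not pair the groups (correlations of deviations −0.259, 0.0808 and −0.220). The largest correlation across the groups was 0.387, between Apatinib replicate 1 and control replicate 3, and its source was not tested. Libraries 1 and 2 of the control differed by more than sampling noise and were kept separate. The genes and the lists were chosen with earlier results of these data known. Named are the 8 genes, all DEGs of the lists, the 2 genes of smallest p in each list, and the 3 genes most like the gene of smallest p. Of these, 2 genes are not reported here. Exon overlaps come from GENCODE 29, which is on another build than the files, so no positions of whole genes are given. Promoter sequences and their positions come from RefSeq (GRCh38.p14), also another build than the files. Total counts of 17043314 to 22067558 set the precision, and the floor of 3 counts was 0.137 to 0.175 CPM.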

Additional observations from a re-analysis of the deposited data

How the results depend on the processing

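Of 406 values of named genes under the alternatives, 321 kept their direction and side of the limits, 64 lost the call, 11 gained it and 10 changed sign. The replicate block gave 2215 DEGs over all genes, 12 in the pathway lists and 1 of the 8 genes, CASP9, and it changed the call of none of the 8. Over all genes, 1866 became 292 with control replicates 1 and 2 summed, 796 and 810 with limma on log2(FPKM + 1) and log2(FPKM + 0.1), and 275 to 2594 with a library left out. The share of DEGs that were higher was 52.1% and became 70.9%, 69.8% and 71.4% in the first 3 of these, against 48.7% with DESeq2, 47.3% with the replicate block and 42.5% without control replicate 3, where more DEGs were lower than higher. Of the 8 genes, 1 was a DEG, against 2 with DESeq2 and 2 without the filter (TNFRSF10B and CASP9 in each), 0 with the controls summed, 0 and 0 with limma, and 0 to 2 with a library left out. Of the pathway genes, 10 were DEGs, against 12 with DESeq2 and 12 without the filter (TNFRSF10B and BIRC2 among them in each), 0 with the controls summed, 2 and 2 with limma (CASP2 and GSN), and 0 to 12 with a library left out. With a library left out, log2 fold changes ran from −0.083 to 0.13 for CASP8, −0.070 to 0.19 for CFLAR, −0.26 to 0.000502 for XIAP, −0.26 to 0.060 for TNFSF10 and −0.20 to 0.062 for CASP1, whose value with the controls summed was 0.00186. The 4 ratios kept their sign in all of these. The summed and left-out fits have fewer samples, and other causes were not tested. FAS, CASP9 and TNFRSF10A, with at most 345 counts in a library, carry the largest counting error of the 8 genes.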
